A study of Mus musculus with 3 samples.

Results

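A set of 10 chemokine genes made by macrophages and dendritic cells (DCs) was followed through every cell of the series: Ccl3, Ccl4, Ccl5, Ccl6, Ccl9, Ccl17, Ccl24, Cxcl2, Cxcl16 and Pf4. They were chosen by gene symbol, and all 10 had a row among the 27998 genes shared by the 3 libraries. No measured value entered this rule, but the members were chosen with earlier results of these data known. The 3 libraries were single-cell 3′ RNA libraries (10x Chromium, v2 chemistry) of cells sorted from mouse hearts, and each group had 1 library. The steady-state macrophage library came from uninjured hearts and the day 11 library from hearts taken 11 days after myocardial infarction. Mice of both were Cx3cr1CreER-YFP/+:R26Td/+, in which an inducible Cre and a yellow reporter are driven from the Cx3cr1 locus and a Cre-activated red reporter is carried at Rosa26; whether Cre was induced is not stated in the labels. The macrophage and DC library (the mixed library) came from uninjured wild Type hearts. Macrophages were gated as CD45+ and CD11b+ with the Fc receptor CD64 (positive in 1 sentence of the labels' protocol, low to high in another), and DCs as CD64-negative, CD11c+ and of intermediate to high MHC class II. All mice were C57BL/6, 8-12 wks old, and all hearts were digested with flavopiridol, a transcription inhibitor. The labels do not say whether a library pooled several hearts.

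Chemokines are small secreted proteins that steer leukocytes through G protein-coupled receptors on the target cell. Tissue macrophages and DCs are a major source of them in the heart, and after infarction they help to set which leukocytes enter the tissue. Names follow the spacing of conserved cysteines (CC or CXC). Most are secreted, Cxcl16 is first made as a membrane protein, and Pf4 binds strongly to heparin-like sugar chains.

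Of the genes, 5 lie in 1 cluster of 138906 bp on chromosome 11 (GENCODE vM21 on GRCm38, the assembly of mm10, which the submitters' processing notes name). They are Ccl5 (chr11:83525778-83530518), Ccl9 (chr11:83572919-83578636), Ccl6 (chr11:83587882-83593087) and Ccl3 (chr11:83647844-83649355) on the minus strand, and Ccl4 (chr11:83662584-83664683) on the plus strand. Between Ccl9 and Ccl6 lie 9245 bp, and between Ccl3 and Ccl4 lie 13228 bp. Pf4 (chr5:90772435-90773383) and Cxcl2 (chr5:90903871-90905938) lie on the plus strand of chromosome 5, with 130487 bp between them. Ccl24 (chr5:135569937-135573049, minus strand), Ccl17 (chr8:94810453-94812036, plus strand) and Cxcl16 (chr11:70453983-70459984, minus strand) stand apart from these. Each is a protein-coding gene of 3 to 5 exons. The 5′ end of Cxcl16 overlaps Zmynd15, on the opposite strand, by 552 bp, and Ccl6 overlaps a gene on the opposite strand. No label says whether the counting used strand, so reads in these overlaps cannot be told apart. Zmynd15 was counted at 21.1, 42.3 and 26.8 CPM (UMIs per 1000000 UMIs) in macrophages of the steady-state, day 11 and mixed libraries.

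RefSeq promoter windows (GRCm38.p6) were matched for 6 of the 10 genes; Ccl4, Ccl5, Ccl24 and Cxcl16 had no entry. The 250 bases before RefSeq's start site are shown for Ccl6 and Ccl9, and for Ccl3 and Cxcl2, because the levels within each pair moved together across clusters, and for Ccl17, whose UMIs lay mostly in DCs. Capitals mark matches to any of 6 motifs, searched on both strands: NF-kB (by its consensus), AP-1 (TGANTCA), C/EBP (TTGCNNAA), ISRE (TTTCNNTTTC), STAT6 (TTCNNNNGAA) and GAS (TTCNNNGAA).
Ccl6 (chr11:83593088-83593337, minus strand): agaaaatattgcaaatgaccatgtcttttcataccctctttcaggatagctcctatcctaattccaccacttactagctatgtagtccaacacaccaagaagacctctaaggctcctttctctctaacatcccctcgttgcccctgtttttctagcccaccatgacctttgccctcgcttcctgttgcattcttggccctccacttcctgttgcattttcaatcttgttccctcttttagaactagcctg
Ccl9 (chr11:83578637-83578886, minus strand): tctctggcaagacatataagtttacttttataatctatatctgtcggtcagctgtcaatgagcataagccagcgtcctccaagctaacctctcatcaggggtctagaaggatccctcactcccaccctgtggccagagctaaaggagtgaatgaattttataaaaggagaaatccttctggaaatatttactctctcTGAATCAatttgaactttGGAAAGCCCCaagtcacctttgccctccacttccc
Ccl3 (chr11:83649379-83649628, minus strand): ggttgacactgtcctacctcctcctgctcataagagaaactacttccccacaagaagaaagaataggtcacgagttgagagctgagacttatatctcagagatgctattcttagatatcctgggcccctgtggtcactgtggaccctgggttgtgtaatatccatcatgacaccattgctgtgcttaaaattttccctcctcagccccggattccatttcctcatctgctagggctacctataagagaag
Cxcl2 (chr5:90903649-90903898, plus strand): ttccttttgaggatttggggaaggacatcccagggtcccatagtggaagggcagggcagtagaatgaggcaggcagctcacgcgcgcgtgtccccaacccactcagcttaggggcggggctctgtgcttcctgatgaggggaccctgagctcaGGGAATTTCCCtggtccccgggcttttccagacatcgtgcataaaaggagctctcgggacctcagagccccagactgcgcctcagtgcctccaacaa
Ccl17 (chr8:94810203-94810452, plus strand): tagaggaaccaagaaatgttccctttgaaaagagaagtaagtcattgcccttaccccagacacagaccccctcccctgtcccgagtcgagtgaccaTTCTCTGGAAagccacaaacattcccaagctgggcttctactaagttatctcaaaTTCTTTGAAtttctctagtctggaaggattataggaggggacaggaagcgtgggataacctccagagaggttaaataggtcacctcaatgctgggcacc
The Cxcl2 window held a pair of overlapping NF-kB matches, 1 on each strand, of which the farther began 97 bases upstream. The Ccl9 window held an NF-kB match that began 35 bases upstream and an AP-1 match 53 bases upstream. The Ccl17 window held a STAT6 match 154 bases upstream and a GAS match 99 bases upstream. None of the 6 motifs was found in these windows of Ccl6 and Ccl3, and the Pf4 window held a C/EBP match 212 bases upstream. Over all 32851 RefSeq windows of this length NF-kB was matched in 7.25%, AP-1 in 6.75%, C/EBP in 9.56%, ISRE in 2.98%, STAT6 in 5.85% and GAS in 7.02%. A match is a description of the letters and not a bound site.

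The libraries held 1806 (steady state), 4697 (day 11) and 1780 (macrophage and DC) barcodes, with 14388327 to 45175863 UMIs per library. After filters 1741, 4497 and 1742 cells remained, and pairs of libraries shared 7 to 11 barcodes. Cells were clustered without any chemokine gene, so no level below helped to make the clusters. The macrophage compartment, all clusters that were not DC, lymphocyte or endothelial, held 1681, 4362 and 1006 cells with median depths of 10665, 8112 and 5453 UMIs. The labelled cell type was checked with C1qa, a macrophage complement gene, which had a UMI in 100%, 99.8% and 90.3% of compartment cells. Fcgr1, which encodes CD64, had a UMI in 84.0%, 76.9% and 39.8%, and Cd3e of T cells in 0%, 0.0229% and 0%. The compartment of the mixed library stood apart. A set of 8 macrophage genes (C1qa, C1qb, C1qc, Csf1r, Fcgr1, Adgre1, Mertk and Cd68) summed there to 5438 CPM in cluster 12 and 4049 CPM in cluster 8, against 24477 CPM in the resident macrophage-like cluster 0. Cluster 9 (165 cells) held 7914 CPM there and cluster 11 (15 cells) 1496 CPM. The cDC2-like cluster 6, outside the compartment, held 839 CPM there and 8044 CPM at day 11. Mixed-library cells called macrophages below are all cells of this compartment, so some may not be macrophages. Clusters 2, 3, 4, 5 and 13 came almost wholly from the day 11 library and clusters 10, 12, 15 and 19 from the mixed library, so that each may be that library rather than a cell type.

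Levels are given as CPM in summed compartment cells, with exact 95% Poisson intervals, and ratios with exact 95% intervals from the UMI counts. These intervals cover counting error only. A UMI marks 1 captured 3′ end, so levels were not divided by gene length. With 1 library per group there is no error between animals and no test, and infarction cannot be told apart from any other difference between libraries.

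Over the compartment, the 10 chemokines spanned from 4140 CPM (Pf4, steady state) to 2.82 CPM (Ccl17, day 11). At day 11, Cxcl16 and Ccl5 were at least 2-fold higher than in steady-state macrophages, and Ccl24, Ccl17 and Pf4 at least 2-fold lower. The other 5 (Ccl3, Ccl4, Ccl6, Ccl9 and Cxcl2) lay within 2-fold. Of the 5319 genes that reached 20 CPM on at least 1 side, 1.67% were at least 2-fold higher and 2.69% at least 2-fold lower. Of the 10 chemokines, 9 met that minimum; 2 of these were higher and 2 lower, and Ccl17 did not meet it. The median log2 ratio was 0.14 over the 9 chemokines that met the minimum and -0.06 over all genes that met it. With Ccl17 included, it was -0.23 over the 10 chemokines. The order of the levels was Pf4, Ccl6, Ccl9, Cxcl2, Ccl24, Cxcl16, Ccl4, Ccl3, Ccl5 and Ccl17 at steady state. The intervals of the last pair overlapped, and those of the other neighbours did not.

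**Figure D1:**
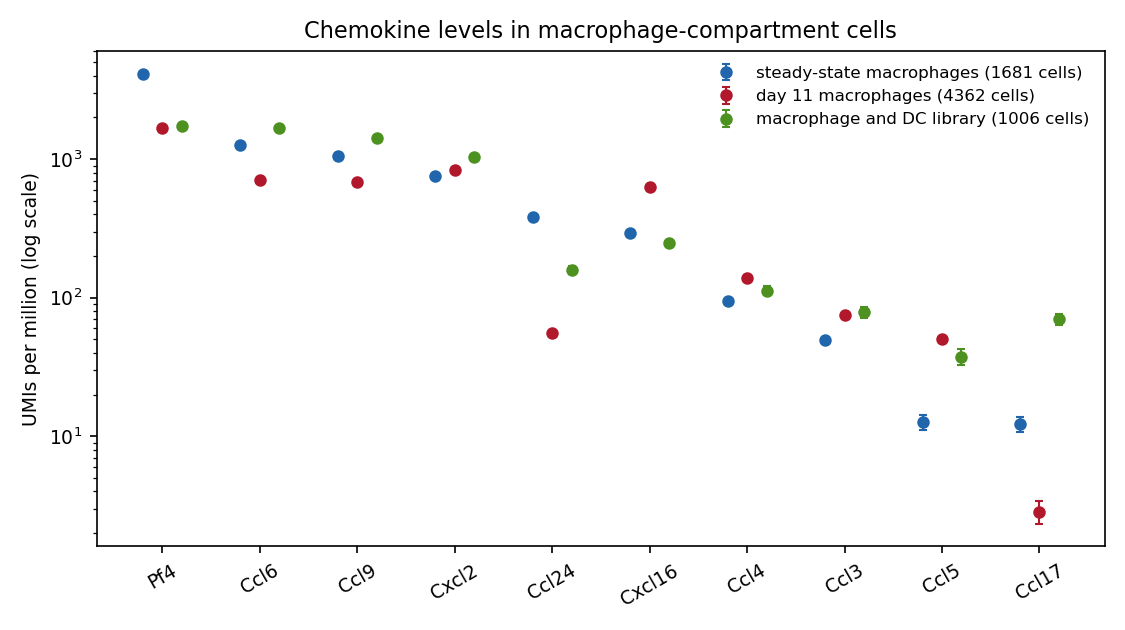
Level of each chemokine (CPM, log scale) in the summed macrophage-compartment cells of the 3 libraries; points are the pooled level and bars the exact 95% counting interval, mostly smaller than the point. Pf4 stood at 4140 CPM at steady state and 1668 CPM at day 11, while Cxcl16 stood at 631 CPM at day 11 against 293 CPM.

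Against the compartment of the mixed library, the same day 11 cells gave other differences. There 1 chemokine, Cxcl16, was at least 2-fold higher, and 4 (Ccl6, Ccl9, Ccl17 and Ccl24) at least 2-fold lower. Among the 5087 genes compared, 5.82% were higher and 2.75% lower. Without cluster 12, which held 192 of the 1006 reference cells, no chemokine was higher and 2, Ccl17 and Ccl24, were lower. The steady-state libraries themselves differed. In macrophages of the mixed library, Ccl5 and Ccl17 were at least 2-fold higher than in steady-state macrophages, where 2.05% of 5272 genes were higher. The Ccl5 ratio of 2.97 rested on 1 cell of the mixed library: without the single richest cell of each library it was 0.874, while that of Ccl17 was 6.75. Ccl24 and Pf4 were at least 2-fold lower, as were 8.04% of those genes. The day 11 comparisons share the day 11 cells. Side by side, against steady state and the mixed library, the ratios were 2.15 and 2.53 for Cxcl16, 0.147 and 0.353 for Ccl24, 0.403 and 0.954 for Pf4, and 4.02 and 1.36 for Ccl5.

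Pf4, platelet factor 4, is a CXC chemokine best known from platelet granules and is also transcribed in tissue macrophages. It had the highest level of the set in every library, although in the mixed library its interval overlapped that of Ccl6. It stood at 4140 CPM (4114 to 4167) at steady state, 1668 CPM (1655 to 1680) at day 11 and 1749 CPM (1717 to 1781) in the mixed library. The day 11 level was 2.48-fold lower (2.46 to 2.51) than at steady state. Against the mixed library the day 11 ratio was 0.954.

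In all 3 libraries Pf4 was highest in the resident macrophage-like cluster 0, which also carried Lyve1 and Folr2, at 5176, 5117 and 6537 CPM. Within this cluster the day 11 level was 0.989 times the steady-state level (0.97 to 1.01). The cluster held 50.5% of compartment cells at steady state and 5.39% at day 11. Pf4 was lowest among day 11 clusters in cluster 9, a CCR2 macrophage or classical monocyte-like cluster, at 262 CPM, and in cluster 2 (marked by Cd72 and Cxcr3) it was at 397 CPM. In clusters 8 and 11, which both libraries filled, the ratio was 0.437 and 0.418. In clusters 1 and 7 it was 0.841 and 0.885; cluster 7 was led by the cardiomyocyte genes Mb and Myl2 and was of low depth. Over clusters 0, 1 and 7 alone it was 0.762, within 2-fold. The lower pooled level was thus not seen within cluster 0 and was seen in clusters 8 and 11.

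After each cell was thinned to 3000 UMIs, 98.9% of steady-state, 74.5% of day 11 and 60.2% of mixed-library macrophages had a Pf4 UMI (99.9%, 88.1% and 72.1% unthinned). Cells that should lack it were not free of it. B and endothelial-like cells of the steady-state sort had a Pf4 UMI in 94.9% of 39 thinned cells (median depth 13212 UMIs) and held 3166 CPM. The same cells held the 8 macrophage genes at 72.1% of the compartment's level and Pf4 at 76.5%. At day 11 these shares of the compartment's level were 48.4% and 70.4%, over 23 cells. Split by type, the 28 B-like cells of steady state held 84.5% and 89.4%, and the 11 endothelial-like cells 13.4% and 15.4%. At day 11 the 12 B-like cells held 65.0% and 91.6%, and the 11 endothelial-like cells 6.74% and 17.2%. The pooled cells are thus no clean measure of free RNA, here or for the chemokines below. In the mixed library, cDC1-like cells (median depth 11530 UMIs) held the macrophage genes at 3.54%, and Pf4 at 2.27%, of the compartment's level. Of 16 platelet markers, 2, 5 and 9 were at 0 in the compartments, and their summed level was 652, 564 and 524 CPM. Of the 16, 3 reached 20 CPM at steady state or day 11, and how the sum divides among the genes is not given here. Itga2b and Gp9, which define platelets, were at 0.182 and 0.0456 CPM at steady state. Ppbp, the gene next to Pf4 and also platelet-derived, was at 22.98, 7.68 and 7.65 CPM, with a UMI in 13.9%, 4.31% and 3.28% of compartment cells. Whether platelet RNA added to the Pf4 level was not tested.

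Ccl24, known as eotaxin-2, attracts eosinophils through CCR3. Its level was 380 CPM (372 to 389) at steady state, 56.1 CPM (53.8 to 58.4) at day 11 and 159 CPM (149 to 169) in the mixed library. The day 11 level was 6.78-fold lower (6.48 to 7.11) than at steady state and 2.83-fold lower (2.63 to 3.05) than in the mixed library. After thinning, 49.6% of steady-state, 8.59% of day 11 and 23.1% of mixed-library macrophages had a UMI (74.7%, 16.6% and 26.8% unthinned). B and endothelial-like cells had one in 28.2% and 10.0% of thinned cells of the steady-state and day 11 sorts, the latter being 2 of 20 cells. By level, the 12 B-like cells of day 11 held Ccl24 at 216% of the compartment's level and the 11 endothelial-like cells at 0%. So few cells, which also held macrophage genes, cannot serve as a background for the day 11 share.

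Ccl24 had the same cluster of highest level as Pf4. It was highest in cluster 0 of all 3 libraries, at 544, 316 and 771 CPM. That cluster held 75.2% of its UMIs at steady state, 30.2% at day 11 and 57.7% in the mixed library. For Pf4 these shares were 65.8%, 16.6% and 44.5%. Cluster 3, the Saa3 and Fn1 cells of day 11, held 34.7% of the day 11 Ccl24 UMIs at 85.9 CPM, more than cluster 0. Clusters 4 (led by Gpnmb, Syngr1 and Ctsd) and 5 (led by Rapsn, Ms4a7 and Fcrls), both left unnamed, were at 4.89 and 9.11 CPM. Unlike Pf4, Ccl24 was lower at day 11 within cluster 0 too, by a ratio of 0.58 (0.54 to 0.63). It was lower in each of the other 4 clusters that both libraries filled, at ratios from 0.13 (cluster 8) to 0.38 (cluster 7). Over clusters 0, 1 and 7 alone the ratio was 0.347, against 0.147 over the compartment. Cells with a TdTomato UMI, the red reporter, held 132 CPM of Ccl24 (83.8 to 198, 58 cells) at day 11 after thinning, against 52.3 CPM in cells without it. Pf4 stood at 2500 CPM against 1617 CPM in the same cells. At steady state the 221 cells with the reporter differed from the rest by 1.21 times for Ccl24 and 1.04 times for Pf4.

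**Figure D2:**
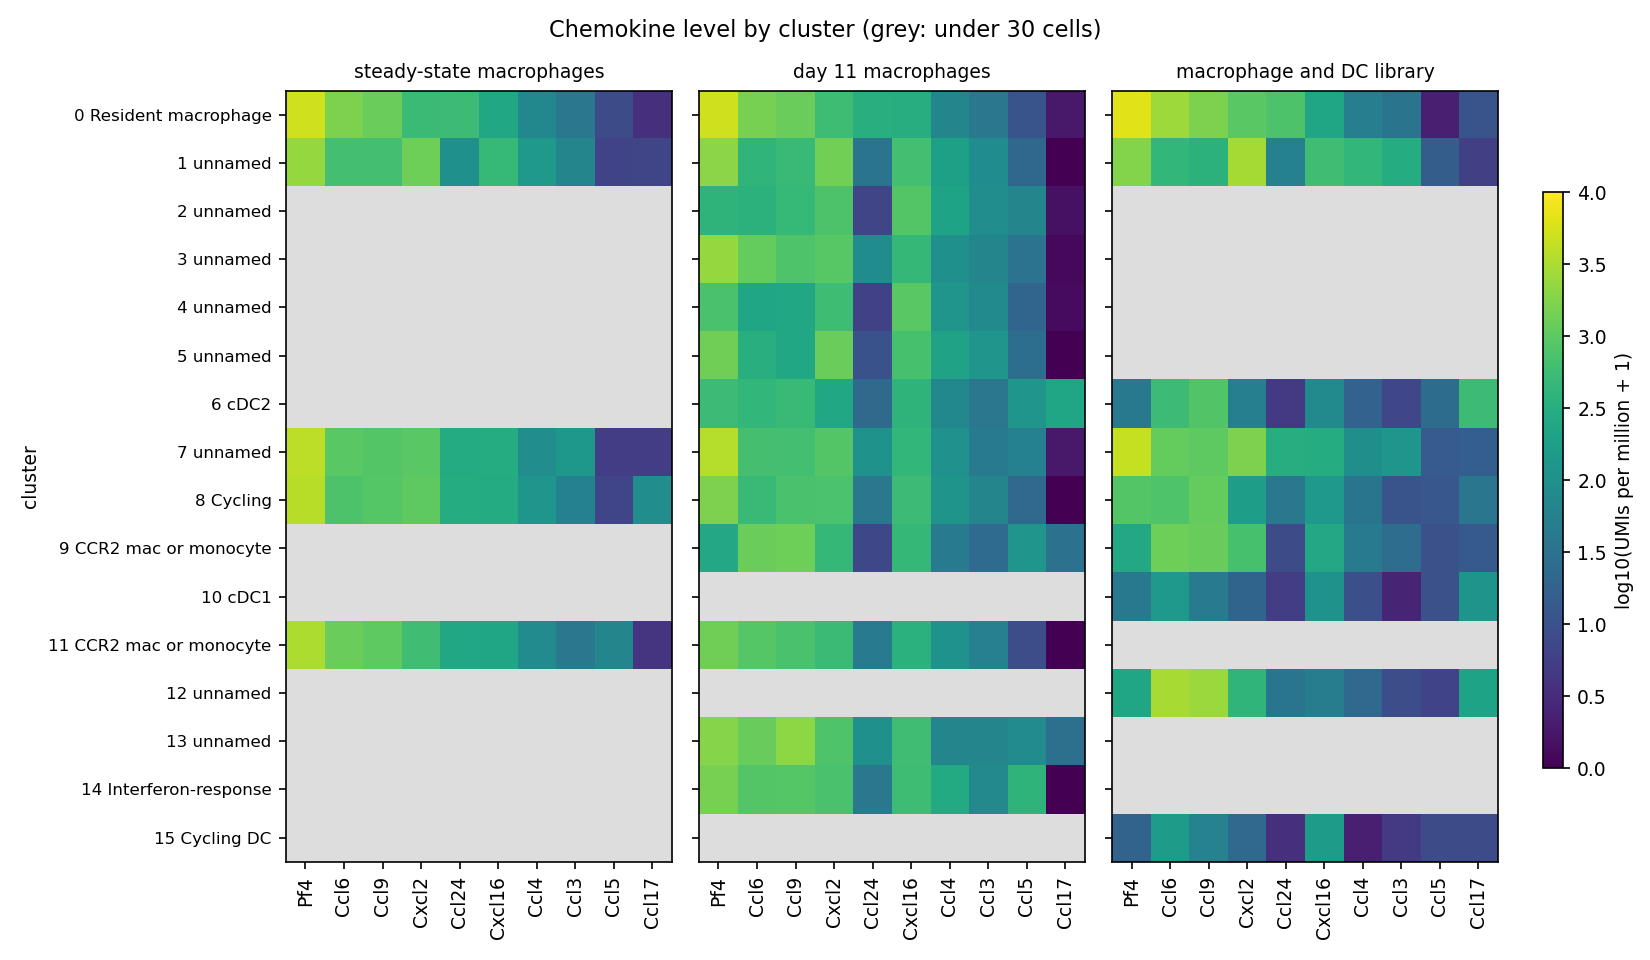
Level of each chemokine as log10(CPM + 1) in every cluster with at least 30 cells, 1 panel per library. Pf4 and Ccl24 were highest in cluster 0 of all 3 libraries, Cxcl2 in cluster 1 of all 3, and Ccl17 in cDC2-like cells (cluster 6) of the day 11 and mixed libraries.

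Cxcl16 binds CXCR6 on T cells and also serves as a scavenger receptor on the macrophage surface, from which the protease ADAM10 can release it. Its level was 293 CPM (286 to 300) at steady state, 631 CPM (623 to 638) at day 11 and 249 CPM (237 to 261) in the mixed library. The day 11 level was 2.15 times (2.09 to 2.21) the steady-state level and 2.53 times (2.41 to 2.66) that of the mixed library. Without cluster 12 the latter ratio was 1.93, and in clusters 0, 1 and 7 alone it was 1.21. After thinning, 53.5%, 76.6% and 46.5% of macrophages had a UMI (86.7%, 93.5% and 64.0% unthinned), against 38.5% of 39 and 50.0% of 20 B and endothelial-like cells of the steady-state and day 11 sorts.

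The day 11 clusters with the most Cxcl16 held 15 or fewer steady-state cells each. Cluster 4 stood at 943 CPM, cluster 2 at 854 CPM and cluster 5 at 689 CPM. Zmynd15, the gene that overlaps Cxcl16, was among the top 10 genes of cluster 2. The resident macrophage-like cluster 0 was the lowest of 13 day 11 clusters at 313 CPM, and cluster 1 was highest at steady state at 471 CPM. Within each of the 5 clusters filled by both libraries Cxcl16 was higher at day 11, by 1.31 times in cluster 0 (1.21 to 1.43) up to 1.93 times in cluster 8 (1.76 to 2.12). Restricted to clusters 0, 1 and 7, the ratio was 1.63, under the 2-fold limit. In the mixed library the 18 migratory DC-like cells held 1156 CPM, against 49.2 CPM in cluster 12. Adam10 and Adam17, proteases that shed surface proteins, were at 54.1 and 67.2 CPM at day 11 against 44.2 and 48.2 CPM at steady state, within 2-fold. Its receptor Cxcr6 was at 0.0245 CPM at day 11 and 0 CPM at steady state.

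Cxcl2, a neutrophil attractant that acts through CXCR2, differed little between the pooled libraries. Its level was 760 CPM (748 to 771) at steady state, 838 CPM (829 to 847) at day 11 and 1029 CPM (1004 to 1054) in the mixed library. The day 11 ratio was 1.10 (1.08 to 1.12) against steady state and 0.814 against the mixed library. After thinning, 62.5%, 61.9% and 49.5% of macrophages had a UMI (85.0%, 80.6% and 60.8% unthinned). B and endothelial-like cells had one in 48.7% and 40.0% of thinned cells, and cDC1-like cells of the mixed library in 4.403%.

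Cxcl2 varied more between clusters than between libraries. Cluster 1, which no marker list named and which was led by Mmp13, Lilra5, Hspa1a and Phlda1, was highest in all 3 libraries at 1321, 1420 and 2883 CPM. Hspa1a is a heat shock gene, induced by stress, and the cluster's depth was 0.697 times that of its libraries. Cluster 0 was the lowest filled cluster at steady state at 531 CPM. At day 11 cluster 5 (led by Ms4a7, Fcrls and Apoe) held 1201 CPM. The next gene on chromosome 5, Cxcl1, was low, at 14.1 CPM at steady state and 22.5 CPM at day 11. Cxcl3, which attracts neutrophils too, was at 0.547 and 16.8 CPM, the day 11 value under the 20 CPM used for comparisons.

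Ccl3 and Ccl4, known as MIP-1alpha and MIP-1beta, are close relatives among the CC chemokines. Ccl3 stood at 49.2 CPM (46.3 to 52.2) at steady state, 74.9 CPM (72.3 to 77.6) at day 11 and 78.5 CPM (71.8 to 85.5) in the mixed library. Ccl4 stood at 94.4 CPM (90.4 to 98.5), 139 CPM (135 to 142) and 112 CPM (104 to 121). The day 11 levels were 1.52 and 1.47 times the steady-state levels, both under 2-fold. In clusters 0, 1 and 7 alone Ccl3 at day 11 was 0.365 times its level in the mixed library, past 2-fold. Ccl4 was above Ccl3 in all 3 libraries, with no overlap of intervals.

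Their highest clusters, among those of at least 30 cells, were the same in 1 of 3 libraries. In the mixed library cluster 1 was highest for both, at 303 and 449 CPM, and held 58.7% and 57.5% of their UMIs. At a clustering resolution of 2.0, both were highest there in an unnamed cluster with 161 cells of this library. The depth of that cluster was 0.446 times that of its libraries. At day 11 Ccl3 was highest in cluster 5 at 119 CPM and Ccl4 in the interferon-response-like cluster 14 at 276 CPM. In the other 3 clusterings tried, both were highest at day 11 in 1 shared unnamed cluster. At steady state Ccl3 was highest in cluster 7 (133 CPM) and Ccl4 in cluster 1 (145 CPM), the latter not apart from cluster 8 at 126 CPM. Resident macrophage-like cells were low for both, at 38.3 and 73.8 CPM at steady state. Ccl3 and Ccl4 were found in the same cells more often than the product of their shares gives. After thinning, 66 steady-state cells held both against a product of 32.8, a ratio of 2.01. The ratio was 1.84 at day 11 (274 cells) and 3.46 in the mixed library (45 cells). No other pair with at least 20 joint cells reached 1.6, and the next was Ccl24 with Pf4 at 1.52 in the mixed library. The ratio cannot exceed the inverse of the larger share of a pair. Pairs with a widely detected gene, such as Pf4 in 1663 of 1681 steady-state cells, could therefore not reach 1.6 there. The contrast with other pairs thus depends on how widely each gene was detected.

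After thinning, 9.76%, 15.1% and 9.93% of macrophages had a Ccl3 UMI and 20.0%, 23.03% and 15.3% a Ccl4 UMI, in the order of steady state, day 11 and the mixed library. B and endothelial-like cells of the steady-state and day 11 sorts had a Ccl3 UMI in 2 of 39 and 1 of 20 thinned cells, and a Ccl4 UMI in 5 of 39 and 1 of 20. The richest 1% of compartment cells held 22.8%, 19.9% and 33.5% of Ccl3 UMIs and 13.5%, 18.5% and 27.0% of Ccl4 UMIs. In the mixed library these cells had median depths of 3403.5 UMIs for Ccl3 and 3218.5 UMIs for Ccl4, against 5453 in the compartment. In the other libraries they were deeper than the compartment median. Thinning left out the 150 shallowest compartment cells of the mixed library. Its thinned shares and the ratio of 3.46 above thus do not cover them.

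Ccl6 and Ccl9 are CC chemokines that act through CCR1 and sit beside each other on chromosome 11. Ccl6 stood at 1258 CPM (1243 to 1273) at steady state, 710 CPM (702 to 718) at day 11 and 1690 CPM (1659 to 1722) in the mixed library. Ccl9 stood at 1050 CPM (1036 to 1063), 687 CPM (679 to 695) and 1425 CPM (1396 to 1454). Day 11 was the lowest library for both. The day 11 level was 1.77-fold lower than steady state for Ccl6 and 1.53-fold lower for Ccl9, both under 2-fold. Against the mixed library it was 2.38-fold and 2.07-fold lower. Restricted to clusters 0, 1 and 7, these last ratios were 0.636 and 0.824, within 2-fold.

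Resident macrophage-like cells were the highest source of both at steady state, at 1601 CPM for Ccl6 and 1235 CPM for Ccl9. Within that cluster the day 11 levels, 1498 and 1218 CPM, were 0.935 and 0.986 times as high. The sources parted at day 11. Ccl9 was highest in cluster 13, an unnamed cluster led by Arg1, Spp1 and Il1rn, at 2067 CPM, where Ccl6 was at 1154 CPM. Clusters 4 and 5 were lowest for both, at 222 and 338 CPM for Ccl6 and 252 and 242 CPM for Ccl9. Cluster 12 of the mixed library, led by Retnla, Lyz1 and Ear2, was highest for both there at 2971 and 2488 CPM. It held 41.2% of Ccl6 and 38.4% of Ccl9 UMIs of that library.

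DC subsets differed in this pair. Among mixed-library cells, cDC2-like cells held 549 CPM of Ccl6 and 832 CPM of Ccl9. The cDC1-like cells held 144 and 41.3 CPM. After thinning, 79.3% of cDC2-like and 9.43% of cDC1-like cells had a Ccl9 UMI, at median depths of 8597 and 11530 UMIs. In the compartment 87.4%, 64.7% and 83.4% had a Ccl6 UMI and 86.5%, 63.8% and 83.6% a Ccl9 UMI. B and endothelial-like cells had a Ccl6 UMI in 64.1% and 35.0%, and a Ccl9 UMI in 51.3% and 55.0%, of thinned cells of the steady-state and day 11 sorts.

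**Figure D3:**
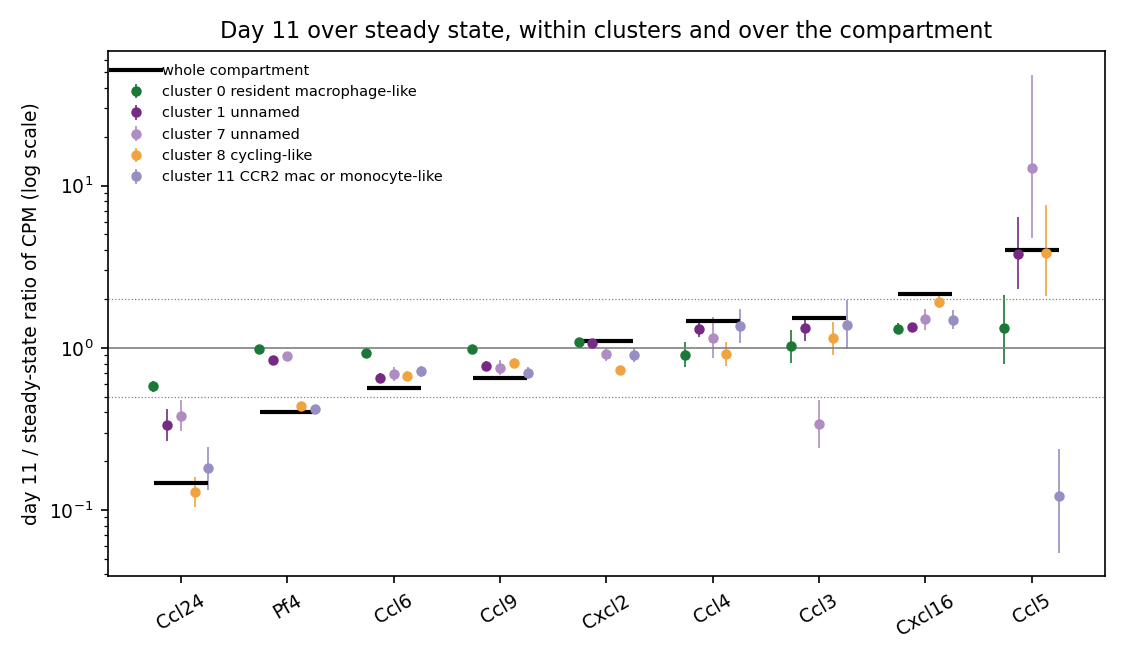
Ratio of day 11 to steady-state CPM (log scale) for 9 chemokines in the 5 clusters with at least 30 cells in both libraries; points are clusters with exact 95% counting intervals and black bars the whole compartment. Pf4 lay at 0.989 in cluster 0 and 0.403 over the compartment, and Ccl24 was under 1 in every cluster drawn. Ccl5 ran from 0.122 (cluster 11) to 12.8 (cluster 7, where its steady-state level was only 4.35 CPM). Ccl17 is left out because most of its values were 0.

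Ccl5, known as RANTES, attracts T cells and monocytes, in part through CCR1, and is made by T cells, activated DCs and macrophages. Few compartment cells held it. Its level was 12.6 CPM (11.2 to 14.2) at steady state, 50.8 CPM (48.6 to 53.0) at day 11 and 37.5 CPM (32.9 to 42.5) in the mixed library. After thinning, 1.78%, 3.97% and 2.34% of macrophages had a UMI (6.96%, 7.91% and 5.47% unthinned). B and endothelial-like cells had one in 1 of 39 and 1 of 20 thinned cells, and the 1 at steady state held 54 UMIs, so these few cells gave no measure of background for Ccl5.

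The day 11 level was 4.02 times (3.55 to 4.58) the steady-state level, and it rested on few cells. The richest 1% of compartment cells held 60.3%, 74.5% and 81.6% of Ccl5 UMIs. At day 11 50% of the UMIs sat in 18 of 4362 cells, the richest with 248. Without the richest 1% of each library the ratio was 2.57. In the mixed library 1 compartment cell held 183 of 245 UMIs. That cell lay in cluster 14 and held the 8 macrophage genes at 471 CPM, against a median of 16404 CPM, with 4 Ccr7 UMIs. Ccr7 is the receptor that guides DCs to lymph nodes. Without the single richest cell of each library the ratio of day 11 to the mixed library was 4.71, in place of 1.36. Over all kept cells, lymphocytes and DCs included, the day 11 ratio was 1.99 to steady state and 0.418 to the mixed library, past 2-fold in the other direction.

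At day 11 Ccl5 was highest among clusters of at least 30 cells in the interferon-response-like cluster 14, at 398 CPM (366 to 432). That cluster held 22.0% of the library's 2602 UMIs. The richest compartment cells, 1 with 248 and 1 with 97 UMIs, both lay among its 145 cells. Its level without them was not computed, so the value does not describe the cluster's cells in general. The 18 T cell-like cells of that library stood at 1962 CPM and held 15.3%. At steady state cluster 11, a CCR2 macrophage or classical monocyte-like cluster led by Plac8 and Ace, was highest at 66.4 CPM. Of the mixed library, 18 migratory DC-like cells stood at 14299 CPM and held 82.8% of all Ccl5 UMIs, with a UMI in 94.1% of thinned cells. The cDC2-like cells of that library stood at 25.2 CPM and resident macrophage-like cells at 1.25 CPM.

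Ccl17, known as TARC, attracts T cells through CCR4 and is a product of DCs. Compartment levels were 12.2 CPM (10.8 to 13.7) at steady state, 2.82 CPM (2.33 to 3.39) at day 11 and 69.9 CPM (63.6 to 76.6) in the mixed library. After thinning, 1.07%, 0.163% and 3.86% of macrophages had a UMI (3.63%, 0.436% and 6.36% unthinned). Of the B and endothelial-like cells, 0 of 39 and 0 of 20 thinned cells had one, and 6.60% of cDC1-like cells did.

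Single cells set these levels. At steady state 1 compartment cell held 186 of 267 UMIs. It lay in cluster 8 and held the macrophage genes at 8841 CPM and 3 UMIs of Cd209a, a cDC2 marker. The richest cell of cluster 12 in the mixed library held 294 of 457 UMIs, with 10 Cd209a UMIs. At day 11 the richest cell held 48 of 115. The day 11 ratio to steady state was 0.232, and 0.445 without the richest cell of each library. At a clustering resolution of 2.0 it was 0.724, and without cycling, interferon-response and monocyte classes 0.632, both within 2-fold.

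In the mixed and day 11 libraries cDC2-like cells held most of the UMIs. Those of the mixed library stood at 554 CPM (527 to 581) with 54.0% of the UMIs, and migratory DC-like cells held 4024 CPM and 16.1%. At day 11 the 93 cDC2-like cells held 220 CPM and 65.6% of the UMIs, of which 211 lay in 1 cell. At steady state the 15 cDC2-like cells stood at 282 CPM with 17.6% of the UMIs, and cluster 8 held 44.9%, 186 of its 199 UMIs in the 1 cell above. The cDC2-like cluster held the macrophage genes at 37.3% of the compartment's level at day 11 and 6.82% in the mixed library. The cDC1-like cells stood at 118 CPM.

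**Figure D4:**
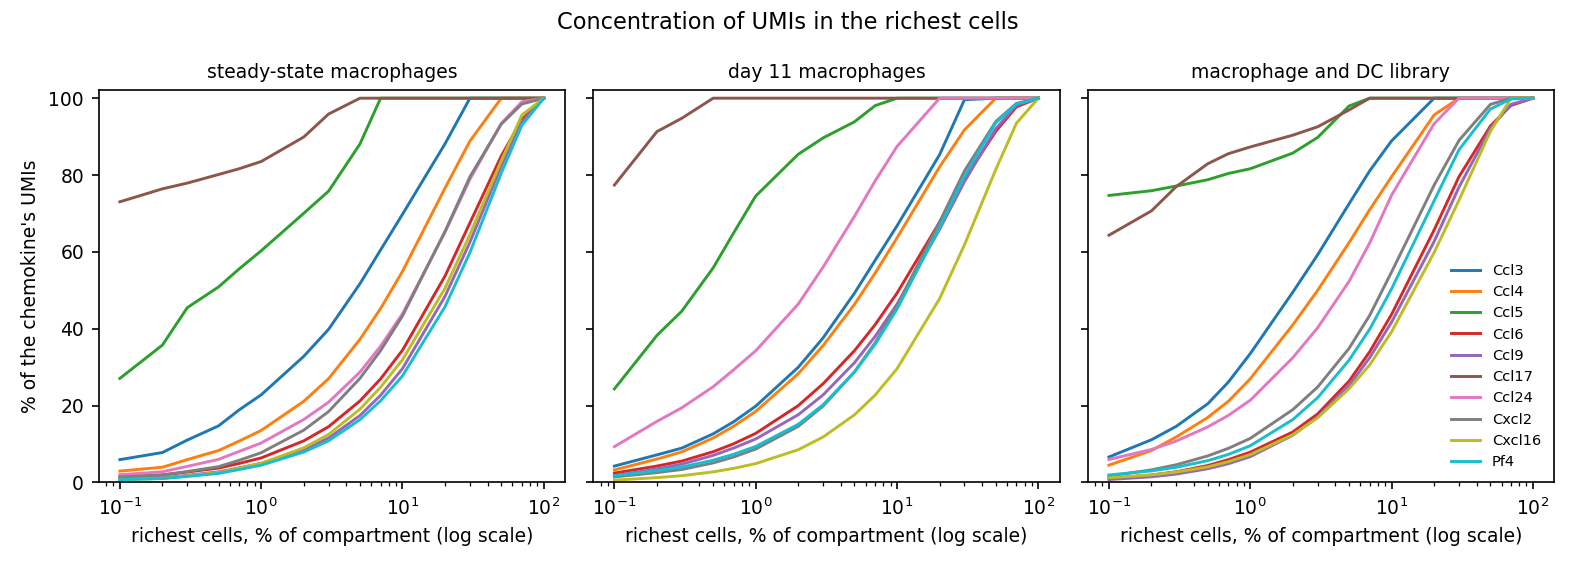
Share of a chemokine's UMIs (percent) held by the richest compartment cells, plotted against the share of cells counted from the richest (percent, log scale), 1 panel per library. The richest 1% held at least 60.3% of Ccl5 and 83.5% of Ccl17 UMIs in each library, and under 10% of Pf4 and Cxcl16 UMIs. At day 11 a Poisson draw at each cell's depth would give 7.35% for Ccl5 and 39.6% for Ccl17. Only 19 of 4362 cells held Ccl17 there, fewer than the 44 cells of the richest 1%, so its share was bound to be 100%.

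How widely the other UMIs were spread differed with the gene and with the library. The richest 1% held 4.98%, 4.90% and 7.25% of Cxcl16 UMIs, 4.98%, 11.3% and 6.71% of Ccl9 UMIs and 6.37%, 12.8% and 7.88% of Ccl6 UMIs, in the order of steady state, day 11 and the mixed library. For Cxcl2 the values were 7.74%, 8.68% and 11.5%. For Pf4 they were 4.50%, 9.37% and 9.54%. For Ccl24 they were 10.3%, 34.3% and 21.4%, and at day 11 50% of its UMIs sat in 104 cells. Of the 44 richest Ccl24 cells at day 11, 19 lay in cluster 0. Depth moved with this ranking for the abundant genes, since the richest Pf4 cells at steady state had a median of 35425 UMIs against 10665 in the compartment. A Poisson draw at each cell's depth would give the richest 1% 3.37% of Pf4 and 4.12% of Cxcl16 UMIs at steady state. For Ccl24 at day 11 it would give 7.03%. The draw takes in depth and level alone, and what else moved the shares was not tested.

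Across 27 sums of a cluster in a library, each of at least 30 cells, log2(CPM + 10) of some members moved together. Pearson's r was 0.92 for Ccl6 with Ccl9, 0.91 for Ccl3 with Ccl4, 0.87 for Ccl3 with Cxcl2, 0.85 for Ccl4 with Cxcl2 and 0.84 for Ccl24 with Pf4. Ccl5 reached at most 0.43 with any other member, Cxcl16. Ccl17 ran against Cxcl16, with r of -0.67. Sums of the same library share depth and free RNA, so these values are descriptions. Among 6741 genes, those most like Ccl24 were Fxyd2 (0.96), Folr2 (0.93), Tmod1, Etv1 and Lyve1, and those most like Pf4 were Maf (0.96), Igfbp4 (0.96), Rhob, Rin2 and Sept8. Among the genes closest to Cxcl2 were Cd14 (0.95) and the 3 C1q genes. Cxcl16 was closest to Tgfbr1 (0.93), Ms4a7, Skil, Tcirg1 and Tmem119. Ccl17 was closest to H2-DMb2 (0.84), Ddr1, Pkp3, Aldoc and Klrd1. For Ccl6 they were Ccl9, Dok2 (0.89), Ms4a8a, S100a13 and Pilrb1, and for Ccl9 they were Ccl6, Pilrb2 (0.90), Pilrb1, Pilra and Dok2. For Ccl3 they were Ccl4, Snx18 (0.89), C5ar2, Arrb2 and Cxcl2, for Ccl4 Tmcc3 (0.92), Ccl3, Tgif1, Arrb2 and Usp48, and for Ccl5 Apool (0.83), Snx10, Gsdmd, Ccrl2 and Spon1.

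Receptors for these ligands were read in the same compartment, with the 20 CPM minimum for day 11 against steady state. Ccr1 stood at 57.1 CPM at day 11 and 60.0 CPM at steady state, within 2-fold. Cxcr3, a receptor that mouse Pf4 can use, was at 18.3 CPM at day 11 and 3.56 CPM at steady state, under the minimum. Cxcr2, Ccr3 and Ccr4 were at most at 1.00 CPM in both. Of 5 decoy and atypical receptors, 1 met the minimum, Ccrl2, and it was 2.98 times higher at day 11 (33.1 against 11.1 CPM). Of 27 other chemokines 8 met it, with 1 higher (Ccl8, 267 against 114 CPM) and 1 lower (Ppbp). Ccl12, at 234 and 279 CPM, and Ccl2, at 132 and 194 CPM, were within 2-fold.

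Gene groups that are known to be switched on with these chemokines were counted in the same comparison of day 11 with steady state, where 1.67% of all genes compared were higher and 2.69% lower. Of 20 NF-kB targets and feedback genes 17 were compared, 3 of them higher (Il1b 2.31 times, Tnfaip2 2.24 times and Bcl2a1b 2.09 times) and none lower. Of 15 immediate early genes 14 were compared, with none higher and 2 lower (Klf2 3.87-fold and Klf4 2.51-fold). Of 16 targets of STAT6, the factor of the type 2 cytokines, 9 were compared, with 2 higher and 3 lower. Arg1 stood at 91.2 CPM at day 11 against 1.41 CPM, and Tgm2 at 35.0 against 5.11 CPM. Retnla was 18.5-fold, Mgl2 4.78-fold and Clec10a 2.02-fold lower. Of 17 interferon-stimulated genes 12 were compared, and none lay outside 2-fold. The median log2 ratios of the 4 groups were 0.14, -0.43, -0.33 and -0.14, beside -0.06 over all genes compared.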

How the data were processed

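The deposited values are counts of unique molecular identifiers (UMIs) per gene and barcode, made by the authors with Cell Ranger and STAR on mm10, per the submitters' processing notes (no versions are given). Barcodes with under 500 genes or over 10% mitochondrial UMIs were left out (39, 24 and 13), and then those with the highest Scrublet scores, 0.8% per 1000 barcodes (26, 176 and 25; Scrublet's own threshold marked 8, 0 and 2). Cells were clustered with scanpy 1.11.5 and Leiden (leidenalg 0.10.2, resolution 1.0, 2000 variable genes without chemokines, 30 components) into 20 clusters. A cluster was named from at least 3 of its top 10 genes in 1 marker list; this step and its rule for ties were coded after the data were seen, as was dropping the names of clusters 4, 5 and 13, whose leading genes went against them. Cluster names are rebuilt, since no annotation of the authors was used. UMIs were summed per library and cluster and divided by all UMIs to give CPM; called means at least 2-fold. Shares of cells were also taken after thinning to 3000 UMIs, which left out 76 day 11 and 150 mixed-library compartment cells. Intervals are exact (Poisson, Clopper-Pearson, conditional binomial; scipy 1.17.1) and cover counting error only. The scripts were tested on simulated data. Named genes are the 10 members, the 5 genes most like each by Pearson's r, genes of fixed lists past 2-fold, and the most abundant of each list. Members and lists were chosen with earlier results of these data known. The set of 8 macrophage genes and the look at the richest cells were chosen after the values were seen. Alternatives changed the cells, scaling, depth, clustering and threshold. Some genes of the fixed lists and of the likeness rankings are not reported here.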

Additional observations from a re-analysis of the deposited data

Results flagged for a closer look

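Some ratios between libraries ran opposite ways in different clusters, past 2-fold and with counting intervals that excluded 1. Whether these differences exceed the spread between animals was not tested, since each group had 1 library. Against steady-state macrophages, Ccl5 at day 11 was higher in clusters 1, 7 and 8 (ratios of 3.77, 12.8 and 3.85) and lower in cluster 11 (0.122). The steady-state level was only 4.35 CPM in cluster 7, and under 7.43 CPM in clusters 1 and 8. These 3 ratios thus rest on low denominators. Cluster 11 held 1 cell with 39, 1 with 36 and 1 with 24 Ccl5 UMIs at steady state.

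Against the mixed library, Ccl3 at day 11 was higher in cluster 6, cDC2-like, and cluster 8, cycling-like (6.23 and 6.48), and lower in clusters 1 and 7 (0.284 and 0.380). Ccl4 was higher in clusters 6 and 8 (4.12 and 3.27) and lower in cluster 1 (0.422). Cxcl2 was higher in clusters 6 and 8 (4.87 and 4.39) and lower in cluster 1 (0.492). Ccl24 was higher in cluster 6 (6.11) and lower in clusters 0 and 7 (0.409 and 0.358). Ccl17 was higher in cluster 9 (2.49) and lower in clusters 0, 6 and 7 (0.0893, 0.398 and 0.0585), and it was at 0 at day 11 in clusters 1 and 8 (ratio of 0). The summed macrophage genes moved with the rises in clusters 6 and 8: at day 11 they stood at 8044 and 18272 CPM there, against 839 and 4049 CPM in the mixed library. Their part in these ratios was not tested.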

How the results depend on the processing

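No paired analysis was possible because each group had 1 library. Against steady-state macrophages 2 of the 10 members were higher and 3 lower, the latter with Ccl17, which was under the 20 CPM minimum. Of all genes compared, 1.67% were higher and 2.69% lower. The higher count was 1 over all deposited barcodes, over all kept cells and in clusters 0, 1 and 7 alone (chosen after seeing the data). The lower count was 5 at a 1.5-fold threshold. Against the mixed library 1 member was higher and 4 lower, beside 5.82% and 2.75% of all genes compared. All deposited barcodes and all kept cells each gave 2 higher and 2 lower. Without cycling, interferon-response and monocyte classes, and without the single richest cell (chosen after seeing the data), 2 were higher. Without cluster 12 (also chosen after seeing the data) 0 were higher and 2 lower. Other settings stayed within 1.5 times of these counts, but the members counted could change. Against the mixed library in clusters 0, 1 and 7 alone, Cxcl16 (1.21), Ccl6 and Ccl9 (0.824) were within 2-fold, and Ccl3 was past it. No ratio that was past 2-fold over the compartment changed direction, but those within 2-fold did: for Ccl5 against the mixed library (1.36) it ran from 0.41 over all deposited barcodes to 4.77 without cycling, interferon-response and monocyte classes, and for Ccl3 (0.955) from 0.365 in clusters 0, 1 and 7 to 1.93 over all kept cells. The day 11 ratio to steady state ran from 2.12 to 2.22 for Cxcl16 and from 0.379 to 0.416 for Pf4 over the settings other than clusters 0, 1 and 7 alone (1.63 and 0.762). For Ccl24 it ran from 0.108 to 0.347 over all settings. Unthinned shares moved beyond the thinned interval in 29 of 30 cases, so shares are tied to the depth chosen. In the mixed library depth was lowest, and levels near 1 CPM there rest on few UMIs.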
